A study of Mus musculus with 16 samples.

Results

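A set of 7 genes that were lower in Max null than in Max wild-type mouse lung tumors is described here: Strn3, Fam133b, Irak1bp1, Cryba2, BC005561, Ppp1r17 and Gcgr. They are 7 of the 23284 gene symbols in the count files. They were chosen from these data, as genes outside the large known families that were lower in the null tumors with little overlap of the groups. Their differences between the groups are therefore given as a description, with no test. RNA-seq covered 9 tumors with the genotype Max -/-, here Max null, and 7 with wild-type Max. Both groups come from the RP model on a mixed 129/SvJ and C57BL/6 background, and in both, genes were deleted by instilling adenovirus with CMV-driven Cre recombinase into the trachea, so deletion depends on which cells the virus reached. RP commonly stands for conditional Rb1 and Trp53 alleles, a small cell lung cancer model, but the labels do not spell it out and give no age and no separate animals. P-values therefore set group differences against the spread between these tumors, which may be partly technical. If some tumors share an animal, they are not independent and the p-values come out too small.

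MAX pairs with MYC proteins to activate genes and with MXD proteins, MNT and MGA mostly to repress them, and these pairs bind the E-box CACGTG. The 7 genes have unlike roles. Strn3 encodes striatin-3, a scaffold that ties protein phosphatase 2A to kinases in the STRIPAK complex. Irak1bp1 encodes SIMPL, a partner of the kinase IRAK1 and a coactivator of NF-kB. BC005561 lies inside the gene RefSeq calls Thoc2l, a relative of Thoc2, whose protein is the scaffold of the THO complex that couples transcription to mRNA export. Cryba2 encodes a beta-crystallin of the eye lens that endocrine cells also express. Ppp1r17 encodes G-substrate, a protein of cerebellar Purkinje cells that inhibits protein phosphatases once cGMP-dependent kinase has phosphorylated it. Gcgr encodes the glucagon receptor, a class B receptor that raises cAMP and is best known from liver. No role is stated for Fam133b. Strn3 lies on chromosome 12, Fam133b and BC005561 on 5, Irak1bp1 on 9, Cryba2 on 1, Ppp1r17 on 6 and Gcgr on 11.

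RefSeq (GRCm38.p6) gave a promoter for 5 of the 7 genes, Strn3, Fam133b, Irak1bp1, Cryba2 and Gcgr. Of these 5, only that of Irak1bp1 held CACGTG in the 300 bases from 250 before to 50 after the start, where 7.15% of all 32851 RefSeq promoters hold it. The looser form CANNTG, which contains CACGTG, was found in 3 of the 5 (Strn3, Irak1bp1 and Cryba2) and in 72.3% of all promoters. Both strands were searched, and these letters read the same on either strand. The 250 bases before the start are printed for Irak1bp1, which holds the only CACGTG, 22 bases before the start, and for Cryba2, whose single CANNTG starts 63 bases before it. Irak1bp1 lies at chr9:82829556-82829805 on the plus strand and Cryba2 at chr1:74893144-74893393 on the minus strand. Capitals mark CANNTG.
Irak1bp1: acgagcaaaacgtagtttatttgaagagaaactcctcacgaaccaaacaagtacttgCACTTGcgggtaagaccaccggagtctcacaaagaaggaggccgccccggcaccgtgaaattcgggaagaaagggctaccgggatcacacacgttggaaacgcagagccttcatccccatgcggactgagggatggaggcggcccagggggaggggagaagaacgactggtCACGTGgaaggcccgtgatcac
Cryba2: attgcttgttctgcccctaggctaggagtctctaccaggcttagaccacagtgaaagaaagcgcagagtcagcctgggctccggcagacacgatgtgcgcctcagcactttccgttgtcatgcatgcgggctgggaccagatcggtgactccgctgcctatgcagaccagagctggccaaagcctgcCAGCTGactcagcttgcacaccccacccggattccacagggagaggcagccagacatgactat

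The libraries held 8.67 to 15.1 M reads in genes in null tumors and 9.15 to 13.2 M in wild-type tumors, and levels are given as CPM (counts per M reads in genes, with TMM-scaled library sizes). Multiply aligned reads (those with more than 1 alignment) were 9.17% to 11.8% of all counts in null tumors and 12.3% to 22.2% in wild-type tumors, without overlap. All counts are those in genes plus the totals of the counting program HTSeq for reads outside them. A read with several alignments may enter its total more than once, so this is not strictly a share of sequenced reads. The share was highest in wild-type tumors 2, 4 and 7. Library property and labelled genotype therefore cannot be told apart, and values without these 3 tumors are given beside the results. Max itself measured 64.2 to 83.5 CPM in null and 52.4 to 75.9 CPM in wild-type tumors, and its log2 difference of 0.18 ± 0.11 (SE) did not pass (adjusted p = 0.281, edgeR). Since the labels do not say which part of the gene was removed, this level does not check the genotype, and every direction is between groups as labelled. None of 12 neuroendocrine markers was at 0 in every tumor, and their summed level was 3916 to 7141 CPM in null and 3970 to 27120 CPM in wild-type tumors. Calca, a peptide hormone gene, alone made 23460 CPM of the highest sum, in wild-type tumor 2.

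**Figure D1:**
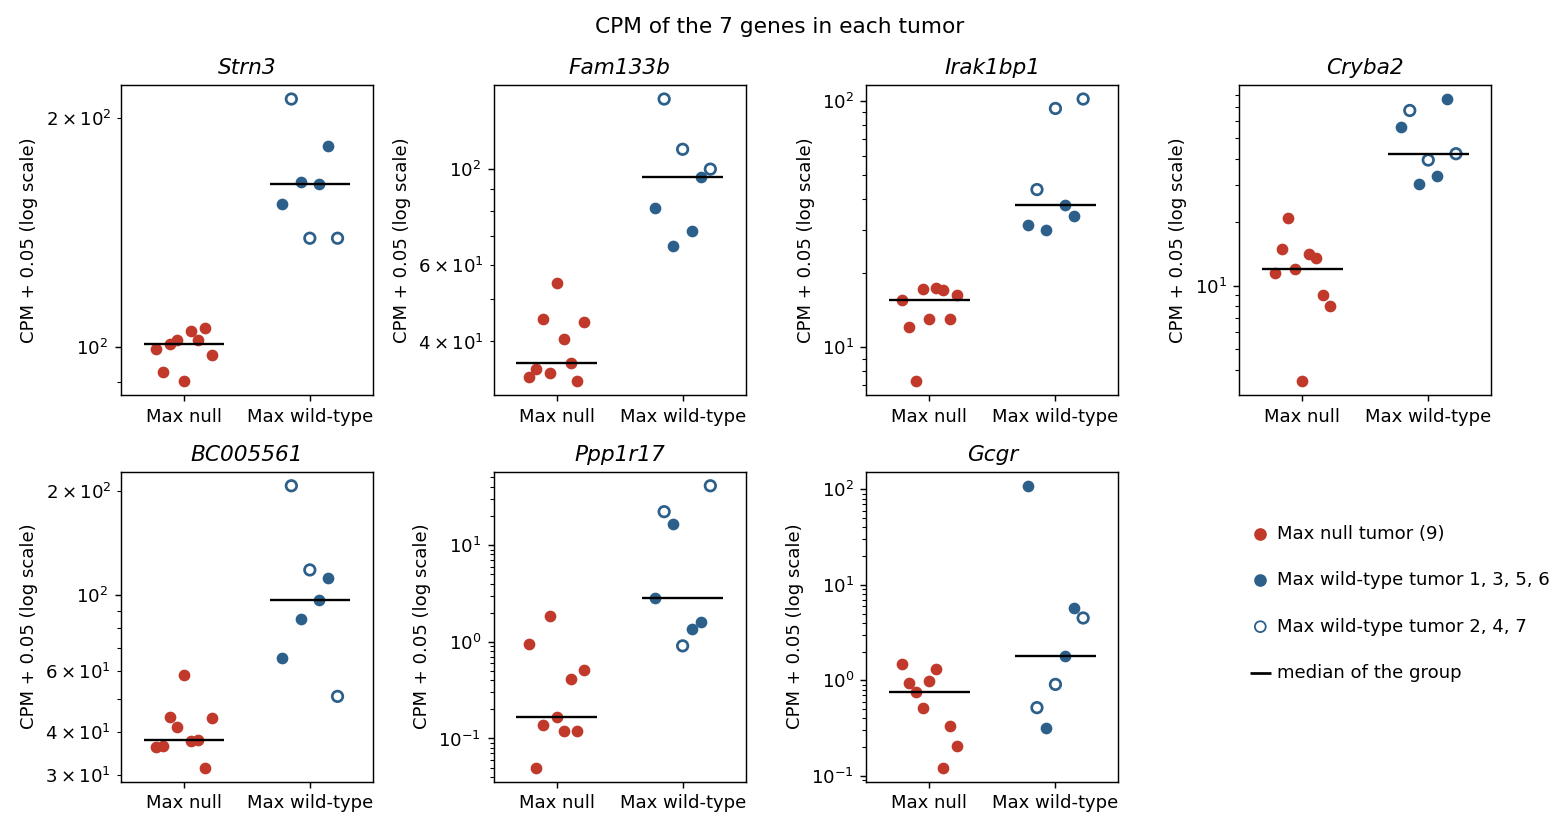
CPM of the 7 genes in each tumor, with 0.05 added, on log axes that differ between panels, Max null left and Max wild-type right. Points are tumors, open points are wild-type tumors 2, 4 and 7, and lines are group medians. The groups do not overlap for Strn3, Fam133b, Irak1bp1 and Cryba2, while Gcgr stands at 109 CPM in wild-type tumor 1 and overlaps in the others.

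In 4 of the 7 genes every null tumor lay below every wild-type tumor, and in BC005561 all but 1 of the 63 pairs of a null and a wild-type tumor kept that order. Over all 14825 genes tested, 0.648% had every null tumor lower and 2.48% had at most 3 crossed pairs. Without wild-type tumors 2, 4 and 7, the groups did not overlap in 5 of the 7, where 1.17% of all genes had every null tumor lower. The log2 difference was -1 or below in 6 of the 7, all but Strn3, and in 6.73% of all genes. The genes were chosen on this contrast, so nothing is read from these counts. Gcgr had 16 crossed pairs, which goes against describing it among the most consistent falls. Ppp1r17 had 4, more than the other 5 genes but only just above the limit of 3 counted over all genes.

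Strn3 had the smallest difference and the tightest groups. It measured 90.2, 101 and 106 CPM (lowest, median and highest) in null tumors and 139, 164 and 212 CPM in wild-type tumors. The means were 99.5 ± 5.21 CPM (SD, n = 9) and 165 ± 25.9 CPM (n = 7), a log2 difference of -0.73 ± 0.11 (SE). The wild-type tumors with the most multiply aligned reads, 4 and 7, were the lowest of their group, at 139 CPM each. Without wild-type tumors 2, 4 and 7 the log2 difference was -0.75 ± 0.09, as large as with them, with 154 to 184 CPM in the 4 wild-type tumors left.

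Fam133b measured 32.4, 35.6 and 54.5 CPM in null tumors and 66.5, 96.0 and 145 CPM in wild-type tumors (lowest, median and highest). Its means were 39.3 ± 7.44 CPM in null and 96.0 ± 26.9 CPM in wild-type tumors (SD), with a log2 difference of -1.29 ± 0.17. Wild-type tumors 2, 4 and 7 held its 3 highest values, 145, 111 and 99.9 CPM. Without them the groups still did not overlap and the difference was -1.0 ± 0.16. Part of its transcript, 11.6%, resembled that of another gene, Gm14769, at 95% identity or more, so that its count is less certain there.

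Irak1bp1 leaned more on those same tumors. It measured 7.27, 15.5 and 17.4 CPM in null tumors and 29.8, 37.7 and 102 CPM in wild-type tumors (lowest, median and highest). The log2 difference was -1.89 ± 0.28, with means of 14.3 ± 3.33 and 53.2 ± 30.9 CPM in null and wild-type tumors. Wild-type tumors 4 and 7 measured 93.4 and 102 CPM, and no other wild-type tumor exceeded 43.7 CPM. Without wild-type tumors 2, 4 and 7 the difference was -1.21 ± 0.21, with 33.2 ± 3.44 CPM (n = 4) left in wild-type tumors and still no overlap. Adding the share of multiply aligned reads to the model gave -0.78, but share and genotype cannot be told apart there, since the share does not overlap between the groups.

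Cryba2 differed alike with and without the 3 wild-type tumors of high share. It measured 3.49, 11.99 and 20.9 CPM in null tumors and 30.3, 42.1 and 76.5 CPM in wild-type tumors (lowest, median and highest). The means were 11.9 ± 4.90 and 49.3 ± 17.8 CPM in null and wild-type tumors. Its log2 difference was -2.05 ± 0.29 with all tumors and -2.03 ± 0.35 without wild-type tumors 2, 4 and 7. Null tumor 5 was the lowest and null tumor 3 the highest of the null group.

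BC005561 measured 31.5, 37.9 and 58.3 CPM in null tumors and 50.7, 96.7 and 207 CPM in wild-type tumors (lowest, median and highest). Its log2 difference was -1.36 ± 0.23, with means of 40.8 ± 7.70 and 105 ± 51.1 CPM in null and wild-type tumors. The single crossed pair joined null tumor 5, at 58.3 CPM, and wild-type tumor 7, at 50.7 CPM. Without wild-type tumors 2, 4 and 7, which held both its 2 highest and its lowest wild-type value, the groups did not overlap and the difference was -1.14 ± 0.17. No stretch of its transcript matched that of another gene at 95% identity or more over at least 50 bases. Against Thoc2, 92.6% of it aligned, at 86.4% identity. How the authors' counting treated reads of near matches is not given in the sources used here.

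Ppp1r17 was near 0 in null tumors and ranged widely in wild-type tumors. It measured 0, 0.116 and 1.798 CPM in null tumors and 0.857, 2.76 and 41.0 CPM in wild-type tumors (lowest, median and highest). Null tumor 2 had 0 reads, which allows up to 0.294 CPM (3 counts, counting error only). Wild-type tumors 2, 3 and 7 stood at 22.1, 16.4 and 41.0 CPM, whereas the other 4 lay at 2.76 CPM or below. Null tumors 1 and 4 lay at or above the lowest wild-type tumor. The log2 difference was -4.75 ± 0.94, and -3.61 ± 0.89 without wild-type tumors 2, 4 and 7. Its level in null tumors rests on 0 to 27 reads per library. A stretch of 3.8% of its transcript resembled those of 481 other genes at 95% identity or more, so reads there are less certain.

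Gcgr was high in 1 tumor. It measured 0.0721, 0.7002 and 1.44 CPM in null tumors and 0.270, 1.74 and 109 CPM in wild-type tumors (lowest, median and highest). Wild-type tumor 1 gave the 109 CPM from 1418 reads, and the next tumor, wild-type tumor 6, stood at 5.66 CPM. Of the 9 null tumors, 7 lay at or above the lowest wild-type tumor. The log2 difference was -4.66 ± 1.09 with all tumors, -1.68 without wild-type tumor 1 and -5.41 ± 1.06 without wild-type tumors 2, 4 and 7. DESeq2 gave -1.57 and limma-voom -1.67. Gcgr is a liver gene, and the 17 hepatocyte markers summed to 48.9 CPM in wild-type tumor 1, against 7.79 to 132 CPM in null tumors and 7.29 to 48.9 CPM in wild-type tumors. Fgg alone made 41.3 CPM of the sum in wild-type tumor 1, where Alb measured 0.153 CPM, and Ahsg made 98.5 CPM of the highest null sum, in null tumor 8. Of these markers 4 were at 0 in wild-type tumor 1 (Apoc3, Apoh, Fgb and Ambp), and over the groups 1 of the 5 tested was called higher in null tumors and 0 lower. In bulk tumors, fewer cells of a type and less RNA per cell cannot be told apart.

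**Figure D2:**
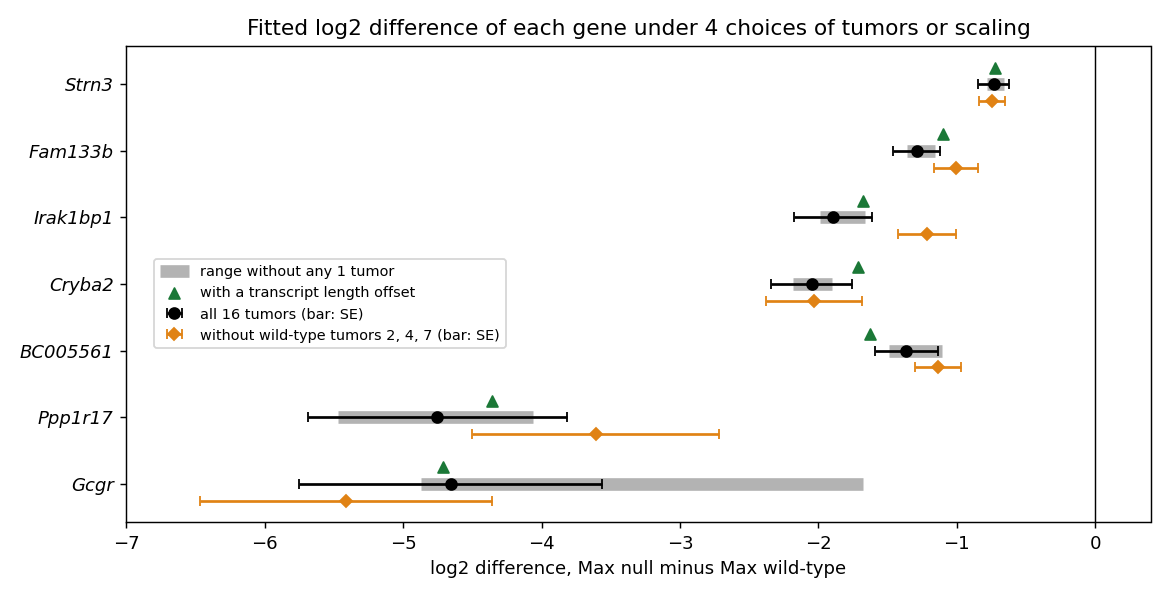
Fitted log2 difference (Max null minus Max wild-type) of each gene with all 16 tumors, without wild-type tumors 2, 4 and 7, with an offset for transcript length, and as a range over the 16 fits without 1 tumor. Bars are SE. All values stay below 0, and the range of Gcgr, from -4.87 to -1.68, is the widest.

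Per kb of the longest protein-coding transcript in GENCODE M21, Cryba2 had the highest mean level of the 7 in wild-type tumors, at 68.4 CPM per kb, and Strn3 in null tumors, at 32.7 CPM per kb. In null tumors Cryba2 reached 16.5 CPM per kb. Ppp1r17 (0.245 in null and 6.99 CPM per kb in wild-type tumors) and Gcgr (0.352 in null and 8.91 CPM per kb in wild-type tumors) had the lowest means in both groups. The spread within the null group, as SD over mean, was 0.0524 for Strn3, 0.188 to 0.233 for BC005561, Fam133b and Irak1bp1, 0.412 for Cryba2, 0.704 for Gcgr and 1.37 for Ppp1r17.

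Among tumors of 1 genotype, the genes were set against the multiply aligned share. The choice of genes looked at the effect of leaving out the wild-type tumors with the highest share, so the relations within wild-type tumors are a description and support nothing. Of all 14 relations (7 genes in 2 groups), 0 passed after adjustment over the 14, those within wild-type tumors included. Unadjusted p was under 0.05 for 1 by Pearson and 3 by Spearman (exact permutation test, two-sided). All of these but Irak1bp1 by Spearman in null tumors lay within wild-type tumors and are not read as results. Within null tumors, Irak1bp1 gave r = 0.465 and rho = 0.833 (exact permutation p = 0.213 and 0.00827, adjusted 0.656 and 0.116; n = 9), and r was 0.421 without the 2 tumors farthest from the median share. Strn3 gave r = 0.592 there and 0.259 without the 2 farthest (exact permutation p = 0.0952 with all 9, adjusted 0.656), and Cryba2 0.104 and 0.367 (exact permutation p = 0.784, adjusted 0.967). Within wild-type tumors, r moved widely without the 2 farthest, tumors 4 and 7. With all 7 tumors it was 0.967 for Irak1bp1, 0.567 for Fam133b, 0.001 for Cryba2, -0.174 for BC005561 and -0.511 for Strn3. Over the other 5 tumors it was 0.605 for Irak1bp1, 0.964 for Fam133b, 0.827 for Cryba2, 0.8 for BC005561 and 0.89 for Strn3, so that the sign for Strn3 and BC005561 rests on tumors 4 and 7.

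**Figure D3:**
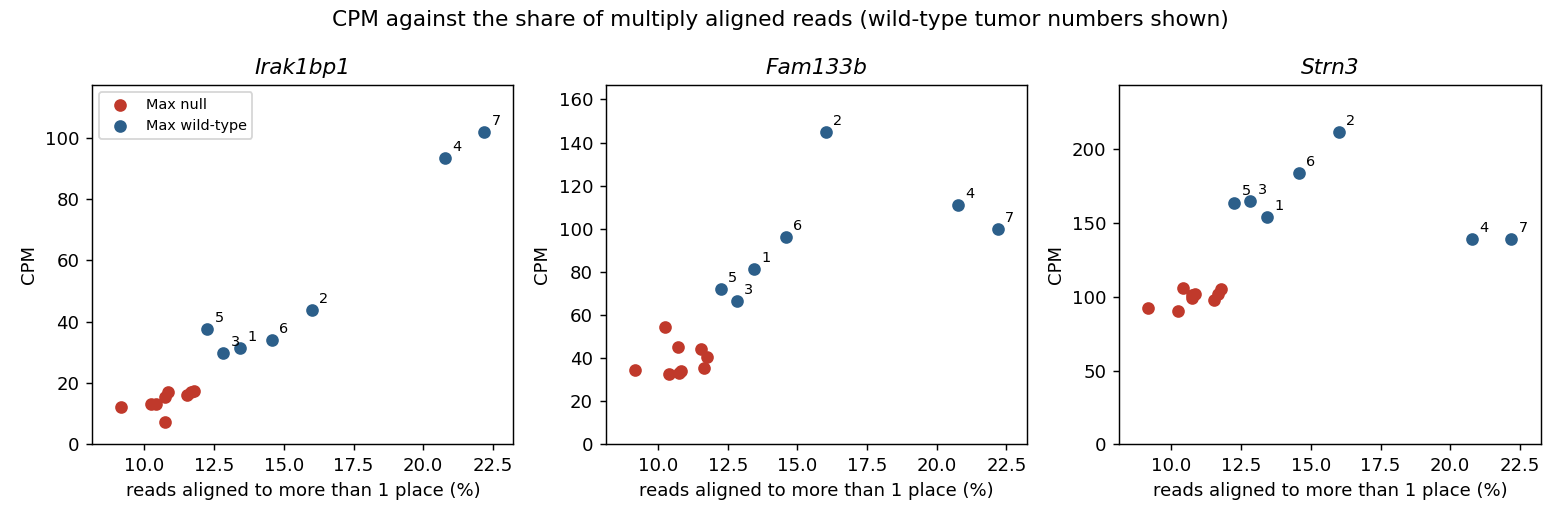
CPM of Irak1bp1, Fam133b and Strn3 against the share of multiply aligned reads (% of all counts), 1 point per tumor, with wild-type tumors numbered. Irak1bp1 is highest in wild-type tumors 4 and 7, at 93.4 and 102 CPM, while Strn3 is lowest of its group there, at 139 CPM each.

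No pair of the 7 genes passed a test of varying together among tumors of 1 genotype. Of 42 relations (21 pairs in 2 groups), 0 passed after adjustment and 1 had an unadjusted p under 0.05. Over the 21 pairs the median r came to -0.17 (null) and 0.15 (wild-type). The 1 was Fam133b with BC005561 in null tumors (r = 0.893, exact permutation p = 0.00167, adjusted 0.07; rho = 0.883, p = 0.00308, adjusted 0.129; n = 9). Both genes lie on chromosome 5 but far apart, with the Fam133b promoter from base 3543583 and BC005561 from base 104508352. Null tumor 5 was highest for both genes. Without the 2 tumors farthest from the median of Fam133b r was 0.67, while among the 7 wild-type tumors r was 0.588 (exact permutation p = 0.16, adjusted 0.648). With upper-quartile factors 1 of the 42 passed.

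The genes most like each member were taken by Pearson r of log2 CPM over all 16 tumors after the group means were removed, which describes likeness only. For Strn3 they included Zfp346 and Zc3h7a (r = 0.828 and 0.825), at 0.582 and 0.668 within null and 0.884 and 0.85 within wild-type tumors. For Fam133b they were Yeats4, a reader of acetylated histones (0.873), the histone gene H3f3a (0.851) and Cox10, for heme A synthesis (0.847). For Irak1bp1 they were Gm14295, the mitochondrial peptidase gene Immp1l and the mitochondrial ribosomal gene Mrpl47 (0.879, 0.856 and 0.84). Their r was 0.843, 0.576 and 0.466 within null and 0.894, 0.957 and 0.944 within wild-type tumors. For Cryba2 they were Gm684, the Golgi complex gene Cog7 and Hrct1 (0.838, 0.82 and 0.815). Their r was 0.958, 0.904 and 0.833 within null and 0.374, 0.728 and 0.784 within wild-type tumors. For BC005561 they were Ccdc43, Ccdc88a and the autophagy gene Rb1cc1 (0.869, 0.847 and 0.846). Their r was 0.531, 0.734 and 0.353 within null and 0.923, 0.934 and 0.922 within wild-type tumors. For Ppp1r17 they were Arg2, an arginase of mitochondria, Tssc1 and the connexin gene Gjc3 (0.902, 0.857 and 0.844), with Arg2 at r = 0.915 within null and 0.897 within wild-type tumors. For Gcgr they were B4galnt4, Ncdn and A830093I24Rik (0.895, 0.874 and 0.867). Those 3 rest on wild-type tumor 1, where Ncdn measured 287 CPM against at most 96.3 CPM in the other 15 tumors, and within null tumors their r was 0.323, 0.27 and 0.484.

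Of the 10 tested genes next to a member on its chromosome, 3 fell and 0 rose, where edgeR called 16% of all genes tested, 8.64% lower and 7.40% higher in null tumors. At the Cryba2 locus on chromosome 1, Fev, a transcription factor of serotonergic and endocrine cells, fell by 2.64 ± 0.76 on the log2 scale (4.50 ± 4.45 CPM in null and 28.1 ± 18.6 CPM in wild-type tumors, adjusted p = 0.0287, edgeR). Wild-type tumor 3 was an exception, at 0.270 CPM, below all 9 null tumors, and the groups overlapped. Fev was at -2.95, not called, once wild-type tumors 2, 4 and 7 were left out. Fev and Cryba2 did not pass a test of their relation within null (r = -0.015, exact permutation p = 0.974, adjusted 0.974) or within wild-type tumors (r = 0.529, p = 0.225, adjusted 0.477). Leaving out the 2 tumors of each group farthest from its Cryba2 median moved r to 0.805 (null) and 0.65 (wild-type), values that were not tested. By rank over all tumors of a group, rho was 0.15 within null (exact permutation p = 0.708, adjusted 0.818) and 0.286 within wild-type tumors (p = 0.556, adjusted 0.77). With so few tumors these values cannot show whether the 2 genes are related. The other neighbour of Cryba2, Mir375, had 0 reads in all 16 files.

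D930016D06Rik follows BC005561 on the same strand, and both lie inside RefSeq's Thoc2l, which lists the symbol D930016D06Rik as a synonym, so that the 2 symbols may count parts of 1 gene. It measured 42.3 ± 7.76 CPM in null and 70.4 ± 27.0 CPM in wild-type tumors, a log2 difference of -0.74 ± 0.22 (adjusted p = 0.0347, edgeR). Its lowest tumor was wild-type tumor 7, at 24.8 CPM, where BC005561 was also lowest of its group. The call was lost in 9 of the 16 fits without 1 tumor (null tumors 1, 2, 3, 4, 7 and 8 and wild-type tumors 2, 5 and 6, range -0.89 to -0.61), but it was kept without wild-type tumors 2, 4 and 7, at -0.94. On the other side, Pkd2 did not pass (0.48 ± 0.21, adjusted p = 0.118).

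Phip, next to Irak1bp1, fell by 0.73 ± 0.22 (251 ± 59.2 CPM in null and 416 ± 168 CPM in wild-type tumors, adjusted p = 0.0345, edgeR). It lost its call in 10 of 16 fits without 1 tumor (null tumors 1, 2, 3, 4, 6, 7 and 9 and wild-type tumors 2, 4 and 5, range -0.85 to -0.54) and was at -0.54 without wild-type tumors 2, 4 and 7, not called. Mei4, on its other side, was at -0.88 ± 0.41 and did not pass (adjusted p = 0.138).

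At the other loci none of the tested neighbours passed. They included Cdk6 (-0.23 ± 0.64, adjusted p = 0.832) and 1700109H08Rik (-1.24 ± 0.53, adjusted p = 0.111) beside Fam133b, Pde1c beside Ppp1r17 (0.45 ± 0.28, adjusted p = 0.28) and Slc25a10 beside Gcgr (0.48 ± 0.19, adjusted p = 0.0974). Coch, a neighbour of Strn3, was too low to be tested and measured 0 to 0.815 CPM in null and 0.180 to 24.1 CPM in wild-type tumors. Gm3279 beside Ppp1r17 and Ppp1r27 beside Gcgr had 5 and 15 reads in all. Ap4s1, which overlaps the Strn3 locus on the other strand without shared exon bases and was named after its values were seen, fell by 1.22 ± 0.27 (15.45 ± 3.15 CPM in null and 35.95 ± 19.35 CPM in wild-type tumors, adjusted p = 0.00933, edgeR), and was at -0.56, not called, without wild-type tumors 2, 4 and 7. Over 22 relations of members with neighbours within groups, added after the data were seen, 0 passed after adjustment and 3 had an unadjusted p under 0.05 (Pearson, exact permutation test).

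**Figure D4:**
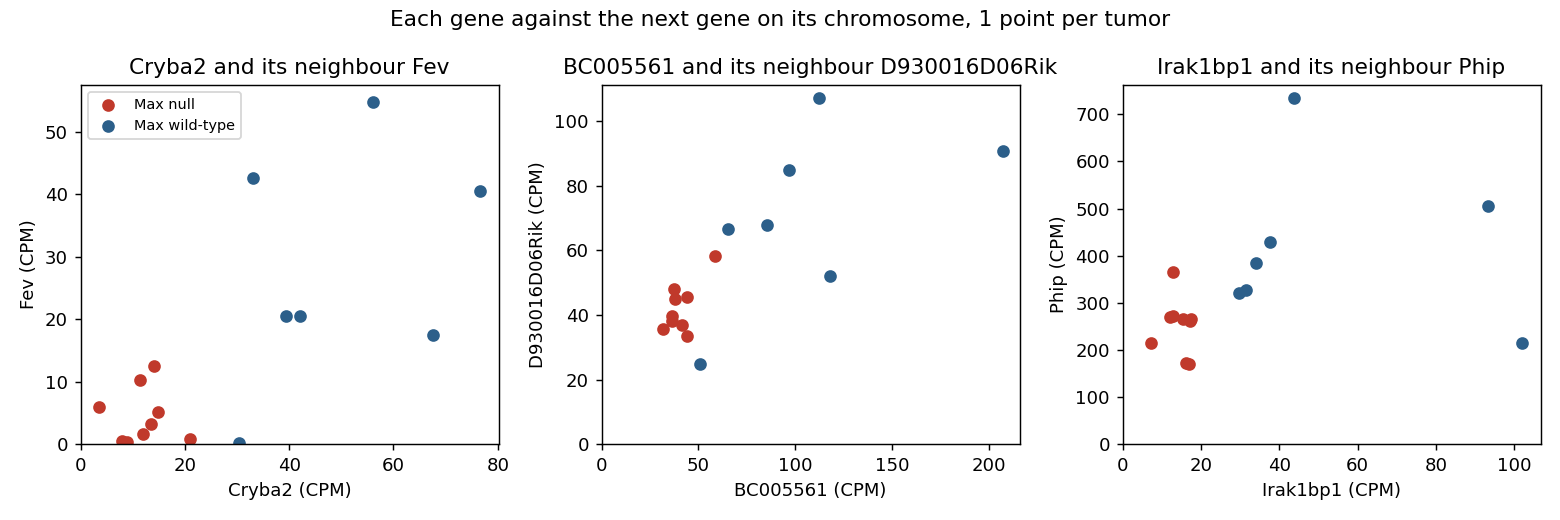
CPM of Fev, D930016D06Rik and Phip (vertical axes) against CPM of the neighbouring Cryba2, BC005561 and Irak1bp1 (horizontal axes), 1 point per tumor. Wild-type tumor 3 has Fev at 0.270 CPM beside Cryba2 at 30.3 CPM, and wild-type tumor 7 has the lowest D930016D06Rik, at 24.8 CPM.

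Other genes of the pathways of the 7 genes were counted in 7 lists, drawn up with earlier results of these data known. The median log2 difference of all genes tested was -0.03. Of the 162 tested genes of the 7 lists, 9 rose and 12 fell, 13% in all, near the 16% of all genes. The fit without wild-type tumors 2, 4 and 7 called 1 of them and 1.68% of all genes.

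Of 16 tested THO and mRNA export genes, 7 fell (43.8%, where 8.64% of all genes fell), 0 rose and 9 did not pass, with a median of -0.39. All 16 lay below 0 with TMM, RLE and upper-quartile factors and without wild-type tumors 2, 4 and 7. Thoc7, a THO subunit, measured 81.1 ± 15.4 CPM in null and 152 ± 64.25 CPM in wild-type tumors (-0.90 ± 0.22, adjusted p = 0.0139). Sarnp, an adaptor of export, fell by 0.76 ± 0.19 (adjusted p = 0.0174), Erh, a partner of splicing and export factors, by 1.08 ± 0.29 (adjusted p = 0.0225), and Alyref, which hands mRNA to the export receptor, by 0.64 ± 0.18 (adjusted p = 0.0266). Thoc2 itself, which resembles BC005561, fell by 0.44 ± 0.14 (173 ± 16.85 CPM in null and 235.5 ± 52.45 CPM in wild-type tumors, adjusted p = 0.0396). The other 2 called were the export helicase gene Ddx39b and the export receptor subunit gene Nxt1, named after their values were seen (-0.61 and -0.70). Without wild-type tumors 2, 4 and 7, edgeR called 0 of the 16 (7 had an unadjusted p under 0.05), and the median was -0.31. With all tumors DESeq2 called 8 and voom 6, and with a transcript length offset edgeR called 3. Alyref lost its call without wild-type tumor 4 or 7 (-0.60 and -0.53), and Erh was at -0.61 without wild-type tumor 7. Thoc2 lost its call in 11 of the 16 fits without 1 tumor (null tumors 1, 2, 3, 4, 6, 7 and 8 and wild-type tumors 2, 4, 5 and 6, range -0.53 to -0.36).

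EdgeR called 15.8% of the 19 other STRIPAK genes, near the 16% of all genes, so the list does not stand out. Of these 19, 1 rose, 2 fell and 16 did not pass (median -0.10). Strn, which encodes striatin, the paralog of STRN3, moved the other way and rose by 1.38 ± 0.43 (24.2 ± 8.08 CPM in null and 9.21 ± 8.07 CPM in wild-type tumors, adjusted p = 0.0363). Mob4, another STRIPAK subunit, fell by 0.61 ± 0.135 (78.2 ± 9.995 CPM in null and 119 ± 23.9 CPM in wild-type tumors, adjusted p = 0.00952), and Ppp2cb, a catalytic subunit of phosphatase 2A, by 0.43 ± 0.14 (adjusted p = 0.0421). Strn lost its call in 11 of the 16 fits without 1 tumor (null tumors 1, 2 and 4 to 8 and wild-type tumors 2, 3, 4 and 7, range 1.22 to 1.84). Ppp2cb also lost it in 11 (null tumors 1 to 4 and 6 to 8 and wild-type tumors 2, 4, 6 and 7, range -0.47 to -0.34). EdgeR called 0 of the 19 without wild-type tumors 2, 4 and 7 (3 with an unadjusted p under 0.05).

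EdgeR called 5.56% of 36 tested genes of IL-1 and Toll-like receptor signaling, below the 16% of all genes. Of these 36, 2 rose, 0 fell and 34 did not pass (median 0.18). The 2 were NF-kB subunit genes, Rel at 1.78 ± 0.49 (2.07 ± 1.90 CPM in null and 0.594 ± 0.288 CPM in wild-type tumors, adjusted p = 0.0231) and Nfkb2 at 0.82 ± 0.25 (20.6 ± 5.88 CPM in null and 11.6 ± 4.52 CPM in wild-type tumors, adjusted p = 0.0336). Nfkb2 lost its call without null tumor 3, 4 or 8 or wild-type tumor 2, 4 or 7 (0.70 to 0.83), and neither passed without wild-type tumors 2, 4 and 7. The 8 macrophage markers, of cells that use this pathway, summed to 136 to 295 CPM in null and 211 to 585 CPM in wild-type tumors. EdgeR called 4 of the 8 lower, where 8.64% of all genes fell. In wild-type tumor 5, which had the highest sum, C1qa, C1qb and C1qc measured 137, 193 and 154 CPM. Csf1r did not follow, at 19.9 to 45.1 CPM in null and 15.9 to 31.6 CPM in wild-type tumors. The part of macrophages in these results was not tested.

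EdgeR called 15.2% of 33 tested protein phosphatase 1 genes, near the 16% of all genes, so this list does not stand out. Of these 33, 3 rose, 2 fell and 28 did not pass (median -0.04). Ppp1r3e, a glycogen-targeting subunit (1.81 ± 0.43, adjusted p = 0.013), and the neurabin genes Ppp1r9b (0.82 ± 0.22, adjusted p = 0.0216) and Ppp1r9a (0.57 ± 0.17, adjusted p = 0.0314) rose. Ppp1r8, which encodes a nuclear inhibitor of the phosphatase, fell by 0.80 ± 0.19 (67.2 ± 17.6 CPM in null and 117 ± 31.2 CPM in wild-type tumors, adjusted p = 0.0131), and Ppp1cc, a catalytic subunit gene named after its value was seen, by 0.58 (adjusted p = 0.0326). Ppp1r9a lost its call without null tumor 1, 2 or 4, at 0.53 to 0.56, and edgeR called 0 of the 33 without wild-type tumors 2, 4 and 7 (8 with an unadjusted p under 0.05).

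EdgeR called 7.89% of 38 tested class B receptor, ligand and cAMP genes, below the 16% of all genes. Of these 38, 3 rose, 0 fell and 35 did not pass (median 0.29). The adenylyl cyclase gene Adcy9 rose by 1.85 ± 0.30 (57.0 ± 12.2 CPM in null and 15.8 ± 8.13 CPM in wild-type tumors, adjusted p = 0.00255), and its groups did not overlap. It was also called without wild-type tumors 2, 4 and 7, at 1.42. The regulatory subunits of protein kinase A, Prkar2a (0.99 ± 0.21, adjusted p = 0.00845) and Prkar2b (0.87 ± 0.20, adjusted p = 0.011), rose as well but did not pass without those 3 tumors (0.77 and 0.80).

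Among 5 tested crystallin genes edgeR called 0 (1 had an unadjusted p under 0.05, and DESeq2 and voom called 1 each). The highest by mean level were Cryzl1 and Cryab. Cryzl1 measured 45.3 ± 8.63 CPM in null and 58.6 ± 32.8 CPM in wild-type tumors (-0.37 ± 0.25, adjusted p = 0.32). Cryab measured 23.6 ± 19.1 and 33.1 ± 18.1 CPM in null and wild-type tumors (-0.48 ± 0.42, adjusted p = 0.443). Crybb3, the only other beta-crystallin gene tested, was at -1.16 and did not pass (adjusted p = 0.0627, edgeR). It was named after its value was seen. Of the 5 genes, 4 lay below 0 and 1 above. Of 15 tested islet genes Fev alone was called (6.67%, where 16% of all genes were), and 14 did not pass (median -0.09).

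**Figure D5:**
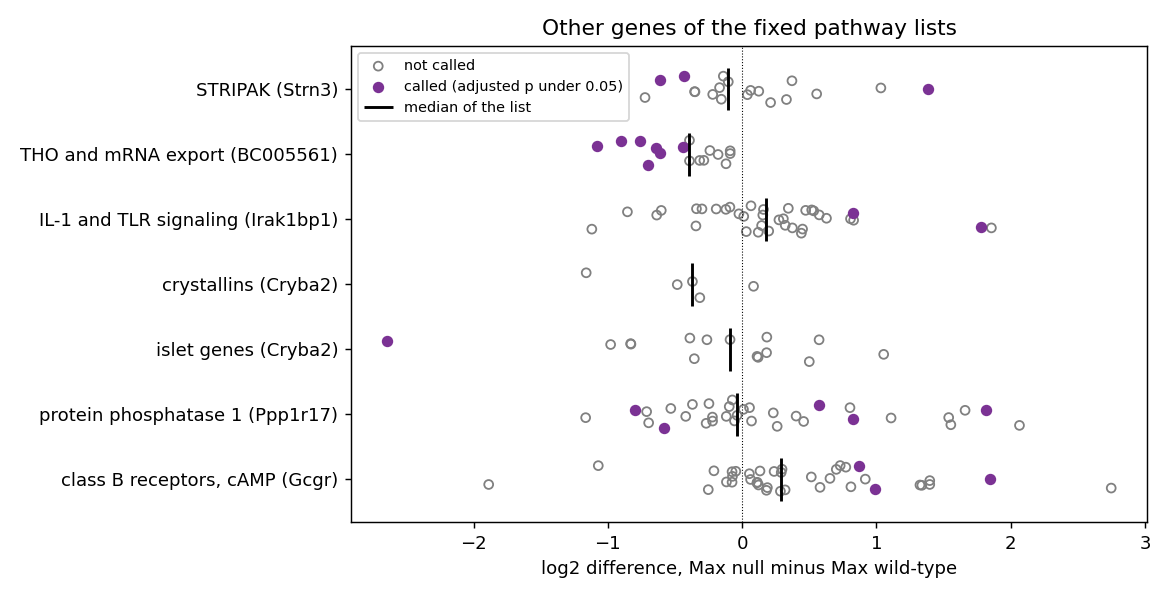
Log2 difference (Max null minus Max wild-type) of every tested gene of the 7 lists, with the member the list was drawn up for in brackets and not plotted. Filled points were called by edgeR, and bars are list medians. All 16 THO and mRNA export genes lie below 0, while the medians of the other lists lie between -0.37 and 0.29.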

How the data were processed

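Each tumor has 1 deposited table of raw counts, whole reads assigned to each gene symbol. Build mm9, HTSeq 0.6.1, TopHat, TopHat2 2.0.12 and bcl2fastq 1.8.4 appear in the submitters' processing notes, without role or order. Which annotation and strand setting were used is not given in the sources used here. HTSeq's totals for reads in no gene, in several genes or at several places took 29.2% to 32.9% of all counts in null and 32.8% to 45.7% in wild-type files. They stayed out of library sizes and tests.

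Groups and tumor numbers come from the labels. Genes were tested in R 4.3.3 by the quasi-likelihood method of edgeR 4.0.16 with TMM factors and filterByExpr, which kept 14825 genes, at a Benjamini-Hochberg adjusted p of 0.05. It was tested on simulated data. SE is the difference divided by the root of F. Alternatives were DESeq2 1.42.0, voom in limma 3.58.1, upper-quartile or RLE factors, 2 other filters, the tumor number as a block, the multiply aligned share as a covariate, an offset for transcript length (97.9% of symbols had a length in GENCODE M21, another build, used for names, lengths and neighbours only) and leaving out tumors. Correlations used log2 CPM with a prior count of 2. Transcripts were compared with BLAST 2.17.0.

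Members and lists were chosen with earlier results of these data known. The genes named are the members, Max, up to 4 called genes of each list with the smallest p (else the 2 highest), the nearest counted genes, and the 3 most alike. Ap4s1, Thoc2, Ddx39b, Nxt1, Ppp1cc and Crybb3 were added after their values were seen. Of the genes this rule names, 2 are not reported here.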

Additional observations from a re-analysis of the deposited data

Results flagged for a closer look

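By Dixon's test, which flags about 1 in 20 groups by chance, 4 values among 16 groups stood apart from their own group. Gcgr in wild-type tumor 1 was 109 CPM, where the next wild-type tumor had 5.66 CPM. BC005561 in wild-type tumor 2 was 207 CPM, above the next wild-type tumor at 118 CPM. BC005561 in null tumor 5 was 58.3 CPM, above the next null tumor at 44.2 CPM. Ppp1r17 in null tumor 4 was 1.8 CPM, above the next null tumor at 0.909 CPM.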

How the results depend on the processing

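The log2 differences of the 7 genes stayed below 0 under every alternative run, and those of Strn3, Fam133b, Cryba2, BC005561 and Ppp1r17 moved by less than 1 SD between tumors. Gcgr was -1.57 with DESeq2, -1.67 with voom, -1.82 in the replicate block and -4.87 to -1.68 without 1 tumor. Irak1bp1 was -0.78 with the multiply aligned covariate and -1.21 without wild-type tumors 2, 4 and 7. The strict filter dropped Ppp1r17 and Gcgr. Genes called lower and higher over all genes were 1281 and 1097 with all tumors. They were 88 and 190 in the replicate block, 2 and 8 with the covariate, 133 and 123 without wild-type tumors 2, 4 and 7, and 792 to 1570 and 679 to 1463 without 1 tumor (both lowest without wild-type tumor 4, and lower calls also 826 to 837 without null tumor 2, 6 or 7 or wild-type tumor 7). Genes of the lists called were 37 with DESeq2, 2 in the block, 0 with the covariate (13 with an unadjusted p under 0.05), 1 without wild-type tumors 2, 4 and 7, and 14 to 32 without 1 tumor (32 without wild-type tumor 1), against 21 in all. The causes were not tested. Same-numbered tumors correlated at -0.17 to 0.237, above 0.1 in 2 of 7 pairs. So few correlations cannot show whether same-numbered tumors share more than a number, and the labels do not say. Of relations between members, 1 passed with upper-quartile factors. Depth limits Ppp1r17 and Gcgr, at 0 to 27 and 1 to 19 reads per null library.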
